A study of Mus musculus with 11 samples.

Results

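Branched-chain amino acid catabolism was described through 10 genes of the 23420 in the table of heart RNA. The genes are the mitochondrial transaminase Bcat2, the branched-chain ketoacid dehydrogenase subunits Bckdha, Bckdhb and Dbt, the kinase Bckdk and phosphatase Ppm1k that act on that enzyme, and Ivd, Mccc1, Mccc2 and Auh of the leucine branch. They were chosen by name as steps of the pathway, with earlier results of these data known. Their counts beside the shares of all genes are therefore a description. All 10 passed the filter on low values and were tested. Hearts came from mice carrying a Cd36 allele flanked by loxP sites, a label that all 11 libraries share, Control included. Cd36 encodes a plasma membrane receptor that takes up long-chain fatty acids. The groups were EC KO, with Cd36 deleted in endothelial cells through Tie2-cre (3 libraries), CM KO, with Cd36 deleted in cardiomyocytes through MHC-cre (3 libraries), Total KO, labelled as a total Cd36 knockout (3 libraries), and Control (2 libraries). The labels give Control no Cre and do not say how the total knockout was made. They state no age, sex, diet or treatment, and they do not say whether libraries were of separate animals, so the spread behind each p-value is that between libraries and may be technical. Tie2-cre is also known to act in blood cell lineages, and no group carries MHC-cre or Tie2-cre without the intended deletion.

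Leucine, isoleucine and valine first pass their amino group to 2-oxoglutarate through a branched-chain aminotransferase. The resulting ketoacids are then committed to oxidation by the branched-chain ketoacid dehydrogenase complex of the mitochondrial matrix, which its kinase switches off by phosphorylation and its phosphatase switches on again. After that step the 3 amino acids part: leucine goes on to acetyl-CoA and acetoacetate, valine to propionyl-CoA, and isoleucine to both. The heart is known to oxidize branched-chain ketoacids, and the pathway is known to be lowered in failing hearts.

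Recovered reads per library were 2268403 in EC KO replicate 1 and ran between 11157062 and 20105673 in the other 10 libraries. The 10 genes were well covered, with 560 to 10346 reads per gene and library outside EC KO replicate 1, whose lowest value was 183 reads for Mccc2. As a check of the labels, Cd36 averaged 27957 ± 2278 normalized counts in EC KO hearts, 19589 ± 3290 in CM KO and 21188 ± 2303 in Total KO hearts, against 39977 ± 6438 in Control hearts (SD, n = 3, 3, 3 and 2). All 9 knockout libraries were below both Control libraries, but the fall passed in CM KO only (limma adjusted p = 0.00863), and not in EC KO or Total KO (limma adjusted p = 0.298 and 0.0809). The libraries labelled Total KO kept 53.0% of the Control mean, which goes against a loss of the whole transcript, and Total KO minus CM KO was 0.12 ± 0.15 (limma adjusted p = 0.638). Which part of the gene was deleted is not given in the sources used here, so counts over the whole gene cannot show whether it was, and Total KO stands below for the group as labelled. All 7 cardiomyocyte markers were detected in every group. CM KO replicate 1 stood apart in the genes described here: it was the lowest of the 11 libraries for 9 of the 10, and for 22.2% of all tested genes. Values below are read counts divided by one factor per library by the authors (normalized counts), and differences are log2 differences of the value plus 1 with their SE from limma, called at an adjusted p under 0.05 over all 12976 tested genes.

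Each of the 10 genes had its lowest group mean in CM KO hearts, at 56.9% to 84.5% of the Control mean. The means were 85.4% to 112% of Control in EC KO hearts and 88.3% to 111% of Control in Total KO hearts. In CM KO against Control, 5 of the 10 fell (Bckdha, Bckdhb, Dbt, Ppm1k and Mccc2) and 0 rose, where 5.70% of all tested genes were called, 2.40% lower and 3.29% higher. The median difference of the 10 was -0.68, beside -0.00 over all tested genes, and all 10 estimates were below 0. Every CM KO library lay below both Control libraries in 9 of the 10 genes, as it did in 18.3% of all tested genes, and below all 8 other libraries in 8 of the 10, as it did in 7.85%. In EC KO against Control, 0 of 10 passed, against 0.316% of all genes, and the same count was 0 for Total KO against Control, against 0.0848% of all genes. Since the hearts were measured in bulk, fewer cells of a type and less RNA per cell cannot be told apart. The 3 comparisons with Control share the Control libraries, and those with CM KO share the CM KO libraries, so they are not independent of each other.

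**Figure D1:**
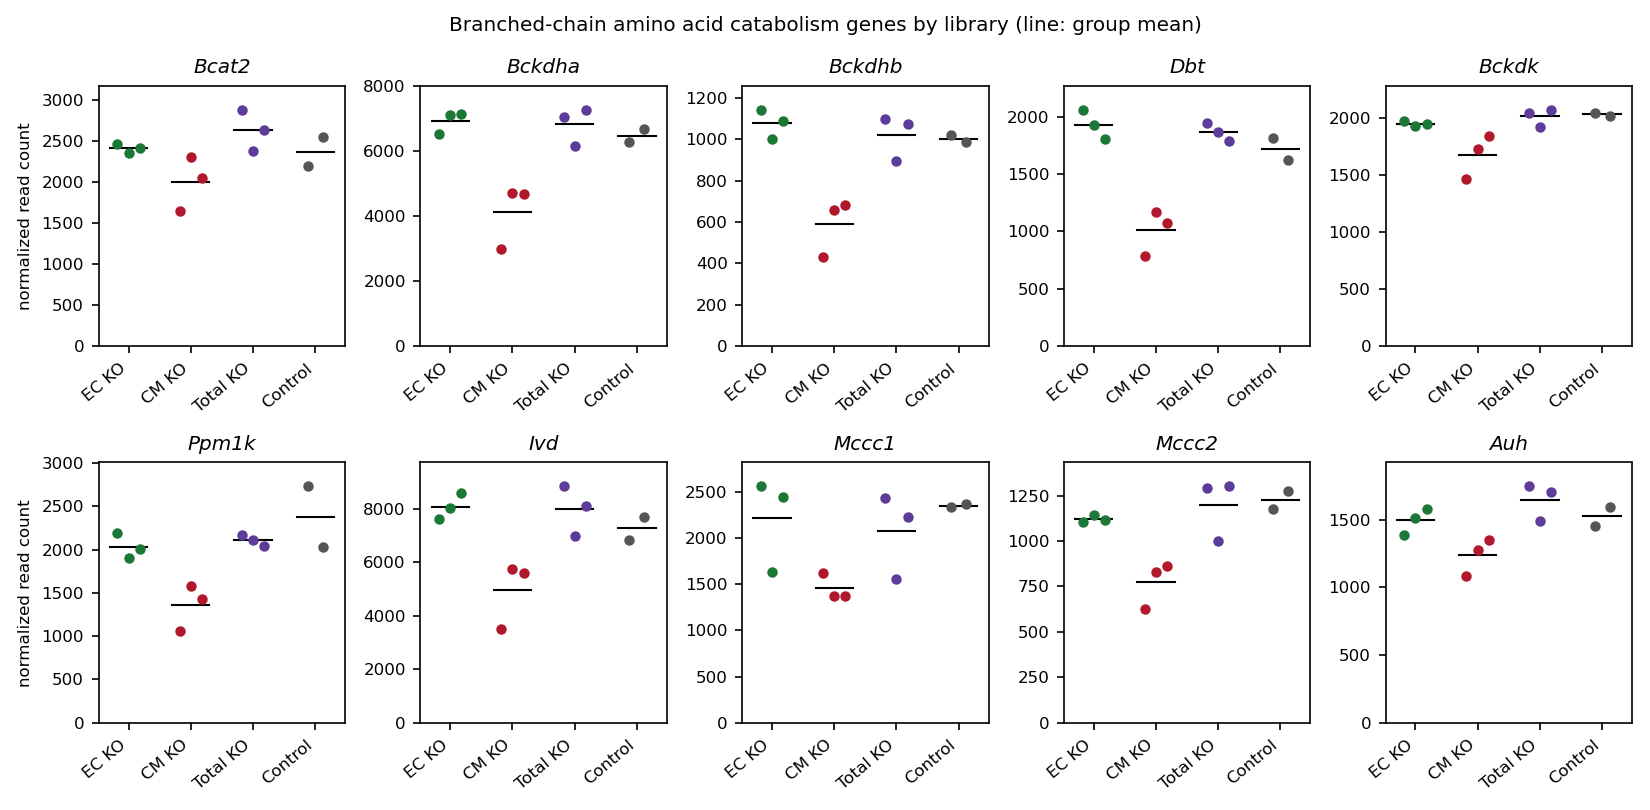
Normalized read count (vertical axis, from 0) of each of the 10 genes in EC KO, CM KO, Total KO and Control hearts. Each point is 1 library and each line a group mean; the 3 CM KO points lie below all 8 others in 8 of the 10 panels, the exceptions being Bcat2 and Mccc1.

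Bcat2 encodes the mitochondrial aminotransferase that starts the pathway in muscle and lies at chr7:45570153-45589711 on the plus strand of GRCm38 (mm10 coordinates, GENCODE annotation, here and for the genes that follow). It stood at 2471, 2353 and 2423 normalized counts in EC KO hearts, 1646, 2312 and 2052 in CM KO, 2887, 2382 and 2641 in Total KO, and 2196 and 2548 in Control hearts. CM KO replicate 2 lay inside the Control range, so these groups overlapped, and the CM KO mean was 84.5% of the Control mean. The difference of CM KO from Control was -0.25 ± 0.14 (limma adjusted p = 0.312). Total KO was higher than CM KO by 0.41 ± 0.12 (limma adjusted p = 0.0385), with no overlap between those groups. That call was lost in 6 of the 11 fits that each left out 1 library.

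Bckdha and Bckdhb encode the alpha and beta subunits of E1, the component that decarboxylates the ketoacids. Bckdha (chr7:25629946-25658981, minus strand) stood at 6538, 7110.4 and 7126 normalized counts in EC KO hearts, 2993, 4714 and 4682 in CM KO, 7054, 6171 and 7273 in Total KO, and 6285 and 6670.4 in Control hearts. Every CM KO library was below every library of the other groups, which overlapped one another. Bckdha fell by 0.68 ± 0.17 on the log2 scale in CM KO relative to Control (limma adjusted p = 0.0360), to 63.8% of the Control mean. The call was lost without EC KO replicate 2, EC KO replicate 3, Total KO replicate 3 or either Control library. Bckdha overlaps B3gnt8 on the opposite strand, a gene that averaged 56.0 normalized counts, and the strand setting of the counting is not given in the sources used here.

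Bckdhb (chr9:83925145-84124240, plus strand) stood at 1142, 999 and 1086 normalized counts in EC KO hearts, 432, 657 and 681 in CM KO, 1095, 894 and 1072 in Total KO, and 1017 and 986 in Control hearts. The CM KO values were again below all others, with a wide gap to the lowest Total KO library. The fall in CM KO against Control was 0.79 ± 0.17 on the log2 scale (limma adjusted p = 0.0229), to 58.9% of the Control mean. The call was lost without either Control library. With 1 library left out at a time, the difference ran from -0.91 to -0.58.

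Dbt encodes E2, the acyltransferase that forms the core of the complex (chr3:116513070-116549981, plus strand). Its values were 2060.4, 1925 and 1802 normalized counts in EC KO hearts, 783, 1166 and 1076 in CM KO, 1946, 1867 and 1788 in Total KO, and 1815 and 1623 in Control hearts. No CM KO library reached the lower Control library, and of the EC KO and Total KO libraries 4 lay above both Control libraries and 2 between them. Dbt fell by 0.79 ± 0.14 on the log2 scale in CM KO relative to Control (limma adjusted p = 0.0133), to 58.7% of the Control mean. The call was lost without Control replicate 1. With 1 library left out at a time, the difference ran from -0.90 to -0.61. Ratios between the genes within a library were chosen after the values were seen, and 5 were tested. The log2 ratio of Dbt to Bckdhb differed between CM KO and Control by 0.00 (exact permutation test, two-sided p = 1, smallest possible p 0.2 with 5 libraries).

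The log2 ratio of Bckdha to Bckdhb differed by 0.11 in the same exact permutation test (two-sided p = 0.2, the smallest possible, and 0.333 after Benjamini-Hochberg adjustment over the 5 ratios). Per kilobase of the principal transcript, Bckdha averaged 2175 ± 518 normalized counts in CM KO and 3411 ± 144 in Control hearts, Bckdhb 401 ± 93.4 in CM KO and 681 ± 14.9 in Control, and Dbt 306 ± 60.7 in CM KO and 521 ± 41.1 in Control (SD, n = 3 and 2). Over all 10 genes, the per-kilobase order in Control hearts was Bckdha, Ivd, Bcat2, Auh, Mccc1, Bckdhb, Bckdk, Mccc2, Dbt and Ppm1k. The neighbours Bckdk (596 ± 6.32) and Mccc2 (577 ± 32.2) did not differ beyond their spread, nor did Mccc2 and Dbt (521 ± 41.1), Dbt and Ppm1k (428 ± 89.6), or Bcat2 (1339 ± 141) and Auh (1154 ± 76.9). The 5 highest genes kept this order in EC KO, CM KO and Total KO hearts, and Ppm1k was the lowest in each. Bckdhb, above Bckdk in the other 3 groups, was below it in CM KO hearts, at 401 ± 93.4 against 492 ± 56.0 per kilobase, a difference within their spread.

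The windows before the start sites are shown for the genes that fell in CM KO against Control, a choice made from these same data. A link between the windows and the fall was not tested. RefSeq windows of 250 bases on GRCm38.p6 were matched for 9 of the 10 genes, and for 4 of the 5 that fell. They are printed 5′ to 3′ on the strand of the gene, with capitals marking 4 motifs searched on both strands. The motifs were the CCAAT box CCAAT, bound by nuclear factor Y, the GC box GGGCGGG, bound by Sp factors, the E-box CACGTG, bound by helix-loop-helix factors, and the half-site AAGGTCA, bound by estrogen-related receptors.
Bckdha, chr7:25658762-25659011, minus strand: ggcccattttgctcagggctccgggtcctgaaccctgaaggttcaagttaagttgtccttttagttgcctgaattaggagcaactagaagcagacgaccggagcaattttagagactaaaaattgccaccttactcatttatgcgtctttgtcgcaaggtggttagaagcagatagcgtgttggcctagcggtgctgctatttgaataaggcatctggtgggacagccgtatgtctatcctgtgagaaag
Bckdhb, chr9:83924887-83925136, plus strand: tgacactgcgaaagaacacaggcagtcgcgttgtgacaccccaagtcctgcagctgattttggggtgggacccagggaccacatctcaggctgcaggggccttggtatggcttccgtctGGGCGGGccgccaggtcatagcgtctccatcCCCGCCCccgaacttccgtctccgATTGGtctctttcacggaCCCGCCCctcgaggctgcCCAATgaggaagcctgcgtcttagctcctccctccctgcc
Ppm1k, chr6:57535488-57535737, minus strand: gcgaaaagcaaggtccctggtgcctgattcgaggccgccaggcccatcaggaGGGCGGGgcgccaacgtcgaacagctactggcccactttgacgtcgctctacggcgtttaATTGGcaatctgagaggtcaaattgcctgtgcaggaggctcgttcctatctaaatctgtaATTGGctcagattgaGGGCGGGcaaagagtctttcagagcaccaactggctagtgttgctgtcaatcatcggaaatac
Mccc2, chr13:100015640-100015889, minus strand: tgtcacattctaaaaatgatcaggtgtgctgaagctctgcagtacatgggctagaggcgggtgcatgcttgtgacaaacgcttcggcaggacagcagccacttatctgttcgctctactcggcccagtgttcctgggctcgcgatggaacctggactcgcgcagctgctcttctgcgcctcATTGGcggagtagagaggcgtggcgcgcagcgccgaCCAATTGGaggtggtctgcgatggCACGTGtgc
The 9 matched genes have 11 windows in all. CCAAT or its complement was in 6 of the 11 windows, and in 33.9% of 32851 windows over all genes. GGGCGGG was in 4 of the 11 and in 23.4% of all windows, and CACGTG in 1 of the 11, that of Mccc2, and in 6.02% of all windows. AAGGTCA was in 0 of the 11 and in 4.08% of all windows. The Bckdha window holds none of the 4 and lies against a RefSeq start inside the gene's annotated span given above. In Mccc2, one CCAAT and one of its complements share 2 bases. A match is only a match of letters, and each window covers 250 bases only.

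Bckdk and Ppm1k act on the complex in opposite directions. Bckdk (chr7:127904082-127910221, plus strand), the kinase that inhibits it, stood at 1976, 1925 and 1948 normalized counts in EC KO hearts, 1467, 1726 and 1838 in CM KO, 2047, 1922 and 2072 in Total KO, and 2045 and 2014 in Control hearts. Its CM KO values were below all others but by a small margin, and no comparison of Bckdk passed. The difference of CM KO from Control was -0.28 ± 0.10 (limma adjusted p = 0.127).

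Ppm1k (chr6:57506502-57535468, minus strand), the phosphatase that activates the complex, stood at 2187, 1906 and 2009.7 normalized counts in EC KO hearts, 1062, 1577 and 1428 in CM KO, 2164, 2117 and 2044 in Total KO, and 2734 and 2029 in Control hearts. The CM KO libraries were below all others, and the 2 Control libraries were far apart, with Control replicate 1 the highest of the 11. Ppm1k fell by 0.82 ± 0.16 on the log2 scale in CM KO relative to Control (limma adjusted p = 0.0167), to 56.9% of the Control mean. Without Control replicate 1 the fall was 0.60 on the log2 scale and did not pass (limma adjusted p = 0.178).

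The ratio of Bckdk to Ppm1k within a library was 0.903, 1.01 and 0.969 in EC KO hearts, 1.38, 1.09 and 1.29 in CM KO, 0.946, 0.908 and 1.01 in Total KO, and 0.748 and 0.993 in Control hearts. All CM KO ratios were above the 8 others. The log2 ratio was 0.53 higher in CM KO than in Control, with an exact permutation two-sided p of 0.2, the smallest that 3 against 2 libraries allow, and 0.333 after Benjamini-Hochberg adjustment over the 5 ratios. The ratio of Bckdha to Bckdk was 2.04, 2.73 and 2.55 in CM KO, against 3.07 and 3.31 in Control hearts, at the same smallest p of 0.2 in that exact test. Phosphorylation of the complex and its activity were not measured.

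The leucine branch begins with Ivd, isovaleryl-CoA dehydrogenase (chr2:118861954-118882909, plus strand). Ivd stood at 7625, 8021 and 8604 normalized counts in EC KO hearts, 3509, 5749 and 5599 in CM KO, 8852, 6976 and 8119.5 in Total KO, and 6844 and 7713 in Control hearts. The CM KO values were the lowest of the 11, and the spread within CM KO was the widest of the groups. The difference of CM KO from Control, -0.59 ± 0.19, did not pass (limma adjusted p = 0.0858), and the CM KO mean was 68.0% of the Control mean. Ivd was higher in EC KO than in CM KO by 0.74 ± 0.17 and in Total KO than in CM KO by 0.72 ± 0.17 (limma adjusted p = 0.00972 and 0.0138). The second of these did not pass without Total KO replicate 1 (limma adjusted p = 0.0525).

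Mccc1 and Mccc2 encode the alpha and beta subunits of methylcrotonyl-CoA carboxylase, the biotin enzyme that follows Ivd. Mccc2 (chr13:99948530-100015639, minus strand) stood at 1106, 1144 and 1117 normalized counts in EC KO hearts, 625, 829 and 865 in CM KO, 1292, 1001 and 1302 in Total KO, and 1177 and 1273 in Control hearts. The CM KO libraries were below all others. Mccc2 fell by 0.68 ± 0.15 on the log2 scale in CM KO relative to Control (limma adjusted p = 0.0233), to 63.1% of the Control mean. The call was lost without either Control library. With 1 library left out at a time, the difference ran from -0.77 to -0.53.

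Mccc1 (chr3:35959312-36000678, minus strand) stood at 2562, 1637 and 2443 normalized counts in EC KO hearts, 1624, 1372 and 1374 in CM KO, 2437, 1559 and 2227 in Total KO, and 2336 and 2363 in Control hearts. It was the one gene of the 10 in which CM KO replicate 1 was the highest of its group. EC KO replicate 2 and Total KO replicate 2 were low, so CM KO overlapped Total KO. EC KO replicate 2 lay just above the highest CM KO library. The difference of CM KO from Control was -0.69 ± 0.20 (limma adjusted p = 0.0643), as large as that of Mccc2 but with a wider error. The ratio of Mccc1 to Mccc2 differed by -0.02 on the log2 scale between CM KO and Control (exact permutation test, two-sided p = 1, smallest possible p 0.2).

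Auh encodes the enoyl-CoA hydratase of the leucine branch, a protein that also binds AU-rich RNA (chr13:52835119-52929681, minus strand). It stood at 1389.7, 1509 and 1581 normalized counts in EC KO hearts, 1083, 1278 and 1346 in CM KO, 1747, 1490.3 and 1705 in Total KO, and 1452 and 1595 in Control hearts. The CM KO values were below all others by a narrow margin. The difference of CM KO from Control was -0.31 ± 0.12 (limma adjusted p = 0.145), and Total KO was higher than CM KO by 0.42 ± 0.10 (limma adjusted p = 0.0179), which did not pass without CM KO replicate 1, Total KO replicate 1 or Total KO replicate 3.

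**Figure D2:**
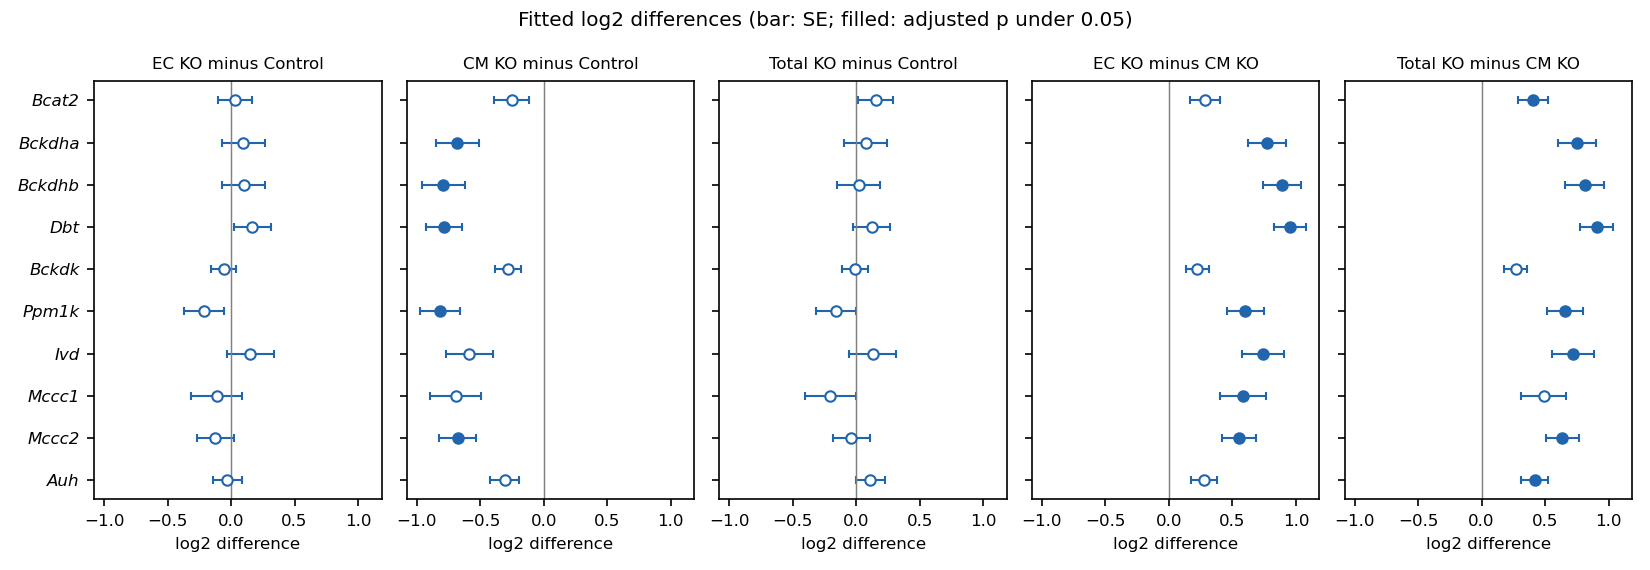
Fitted log2 difference (horizontal axis) of the 10 genes in 5 comparisons, with the first-named group minus the second. Points are estimates, bars are SE and filled points have an adjusted p under 0.05; filled points stand at 5 genes for CM KO minus Control, 7 for EC KO minus CM KO, 8 for Total KO minus CM KO and 0 in the other 2 panels.

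The knockout groups were then set against each other. EC KO hearts were higher than CM KO hearts in 7 of the 10 genes and lower in 0, where 19.1% of all tested genes were called, 8.72% higher and 10.4% lower. The differences were 0.95 ± 0.13 for Dbt, 0.89 ± 0.15 for Bckdhb and 0.78 ± 0.15 for Bckdha (limma adjusted p = 0.000875, 0.00255 and 0.00497). Ivd followed as given above, then Ppm1k at 0.60 ± 0.14, Mccc1 at 0.58 ± 0.18 and Mccc2 at 0.55 ± 0.13 (limma adjusted p = 0.0124, 0.0407 and 0.0127). The call of Mccc1 was lost in 8 of the 11 fits that each left out 1 library. Bcat2, Bckdk and Auh did not pass, at 0.22 to 0.28. Every EC KO library was above every CM KO library in 10 of 10 genes, where that held for 19.1% of all tested genes. In the same comparison, 3 of 7 cardiomyocyte markers and 4 of 6 endothelial markers were called higher in EC KO, and 6 of 7 fibroblast and 5 of 5 measured macrophage markers lower, and their part in the counts was not tested.

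Total KO hearts were higher than CM KO hearts in 8 of the 10 genes and lower in 0, where 16.4% of all tested genes were called, 8.20% in each direction. Dbt differed by 0.91 ± 0.13, Bckdhb by 0.81 ± 0.15 and Bckdha by 0.75 ± 0.15 (limma adjusted p = 0.00185, 0.00591 and 0.00767). Ppm1k differed by 0.66 ± 0.14 and Mccc2 by 0.64 ± 0.13 (limma adjusted p = 0.0107 and 0.00858), and Ivd, Auh and Bcat2 made up the 8. Bckdk, at 0.27 ± 0.09, and Mccc1, at 0.49 ± 0.18, did not pass (limma adjusted p = 0.0588 and 0.0851). No Total KO library overlapped CM KO in 9 of 10 genes, where that held for 19.6% of all tested genes. Of the markers, 1 of 7 of cardiomyocytes was called higher in Total KO than in CM KO (6 at an unadjusted limma p under 0.05), and 6 of 7 of fibroblasts and 5 of 5 of macrophages lower, whose part was likewise not tested.

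The 5 genes that fell in CM KO hearts did not pass against Control in the other knockouts. The differences were 0.10 ± 0.17 in EC KO and 0.07 ± 0.17 in Total KO for Bckdha, 0.10 ± 0.17 in EC KO and 0.02 ± 0.17 in Total KO for Bckdhb, and 0.17 ± 0.14 in EC KO and 0.12 ± 0.14 in Total KO for Dbt. They were -0.13 ± 0.15 in EC KO and -0.04 ± 0.15 in Total KO for Mccc2, and -0.21 ± 0.16 in EC KO and -0.16 ± 0.16 in Total KO for Ppm1k. The signs of the Total KO difference of Bckdha, Bckdhb, Mccc2 and Ppm1k and the EC KO difference of Ppm1k changed under some settings, so no direction is given for them. Over all 10 genes the EC KO differences ran between -0.21 and 0.17 and the Total KO differences between -0.21 and 0.15, with 0 genes at an unadjusted limma p under 0.05 in each, and edgeR and DESeq2 each called 0. Total KO minus EC KO ran between -0.09 and 0.14, again with 0 called, against 0.0385% of all genes, 0 at an unadjusted limma p under 0.05 and 0 by edgeR and DESeq2. In the test over all 4 groups, 6 of 10 passed (Bckdha, Bckdhb, Dbt, Ppm1k, Ivd and Mccc2), where 14.3% of all tested genes did.

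How many of the 10 passed in CM KO against Control moved with the libraries in the fit. Fewer passed without either Control library, a fit that leaves 1 library in that group. The other pathway genes lost calls there too, so that drop was not particular to the 10. The count of the 10 was 0 in a fit to these 2 groups alone, in which the spread came from 5 libraries. It was 5, the same 5 genes, without CM KO replicate 1. With replicates 1 of EC KO, CM KO and Total KO left out together, the count against CM KO was 4 for EC KO and 4 for Total KO, in both Bckdha, Bckdhb, Dbt and Ivd. In Total KO against CM KO it was 5 without Total KO replicate 1.

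Summed markers of cardiomyocytes, fibroblasts and macrophages set CM KO apart from the other groups. Summed over the 7 cardiomyocyte markers, the level was 677261 to 996653 normalized counts in CM KO, 1207180 to 1295180 over EC KO and Total KO, and 1107650 to 1139680 in Control hearts. In CM KO against Control, limma called 0 of the 7 (2 had an unadjusted p under 0.05), edgeR called 0 and DESeq2 called 1, with differences of -0.67 to -0.08 and a median of -0.40. The 7 fibroblast markers summed to 24252 to 61624 in CM KO, 13636 to 17059 over EC KO and Total KO, and 16547 to 17172 in Control hearts. Called higher in CM KO than in Control were 3 of 7, where 3.29% of all tested genes were. They were the collagens Col1a1, Col1a2 and Col3a1, at 1.80, 1.70 and 2.29. The other markers, Lum, Dcn, Pdgfra and Tcf21, did not pass, at 0.97, 0.48, 0.32 and 0.20 (limma adjusted p = 0.0593, 0.127, 0.273 and 0.512). The 5 measured macrophage markers summed to 4552 to 7474 in CM KO, 2369 to 3017 over EC KO and Total KO, and 2483 to 2621 in Control hearts. Of these, 5 of 5 were called higher in CM KO than in Control, beside 3.29% of all tested genes. CM KO replicate 1 held the lowest cardiomyocyte sum and the highest fibroblast and macrophage sums of the 11 libraries. The 6 endothelial markers summed to 15351 to 17003 in EC KO and 11850 to 12484 in CM KO hearts. Their sums were 12568 to 13679 in Total KO and 13772 to 14609 in Control hearts. The CM KO and Total KO sums thus lay below Control and the EC KO sums above it. Against Control, limma called 0 of the 6 in EC KO, CM KO and Total KO (3, 1 and 0 at an unadjusted p under 0.05). Of all tested genes, 0.316%, 5.70% and 0.0848% were called there. In EC KO, 5 of the 6 estimates were above 0, and Emcn stood at -0.36. Of the 5 smooth muscle and pericyte markers, Acta2 was called higher in CM KO than in Control (1.49) and Rgs5 lower (-0.42). Of 2 tested skeletal muscle markers, Acta1 was called higher in CM KO and in Total KO than in Control (1.88 and 2.43). Ckm did not pass, at -0.49 and 0.07. Of all tested genes, 3.29% were called higher and 2.40% lower in CM KO, and 0.0848% in either direction in Total KO. The adipocyte markers summed to at most 15.5 in any library, with Lep at 0 in all 11, as was the erythroid marker Hba-a1.

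Set against the mean log2 level of the 7 cardiomyocyte markers in the same library, the mean of the 10 genes stood, relative to the Control mean, at -0.14, -0.13 and -0.03 in EC KO hearts, -0.17, -0.26 and -0.21 in CM KO, -0.03, -0.20 and -0.01 in Total KO, and -0.01 and 0.01 in Control hearts. On this scale CM KO replicate 1 was no longer the lowest, and CM KO overlapped Total KO through Total KO replicate 2. All CM KO libraries were below the EC KO and Control libraries. The mean centred log2 level of the 10 genes without that step was -0.71, -0.28 and -0.30 in CM KO, against 0.15 and 0.16 in Control hearts. These levels are centred on the mean of all 11 libraries and not on Control. Only their distances from the Control levels of 0.15 and 0.16 can therefore be set beside the values relative to the Control mean. The part of fibroblast and macrophage RNA in the fall was not tested.

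**Figure D3:**
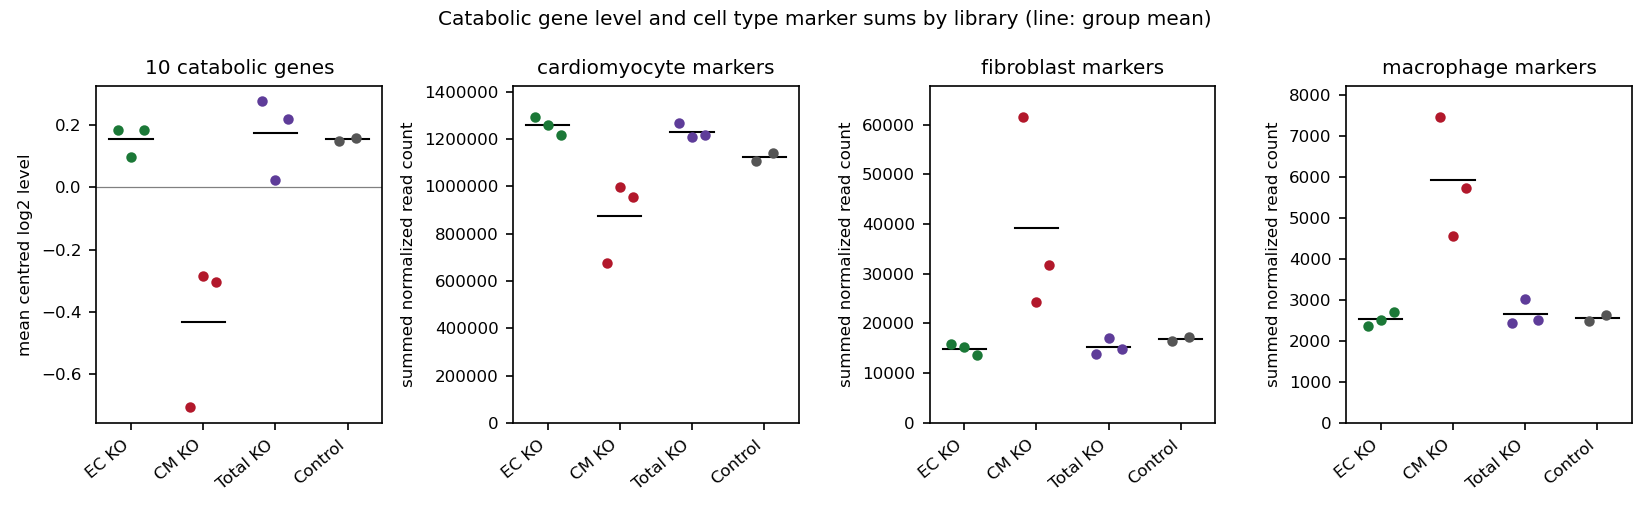
Mean centred log2 level of the 10 genes (left panel) and summed normalized read counts of cardiomyocyte, fibroblast and macrophage markers, in EC KO, CM KO, Total KO and Control hearts. Points are libraries and lines group means; in CM KO the gene level and the cardiomyocyte sum are lower, and the fibroblast and macrophage sums higher, than in every other library.

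Beyond the 10 genes, 30 others of transport, of the distal branches and of shared steps were tested. In CM KO against Control, 6 of 30 fell and 0 rose, with a median of -0.39. Of all tested genes, 2.40% were called lower there and 3.29% higher. EC KO was higher than CM KO in 16 of 30 and lower in 0, with a median of 0.37, beside 8.72% higher and 10.4% lower of all tested genes. Total KO was higher than CM KO in 17 and lower in 1, beside 8.20% of all tested genes in each direction. The 1 was the amino acid transporter Slc7a8 at -0.59 ± 0.18 (limma adjusted p = 0.0439). The counts for EC KO against Control, Total KO against Control and Total KO against EC KO were each 0 of 30. Of all tested genes, 0.316%, 0.0848% and 0.0385% were called in these comparisons. Of the 30, 5, 2 and 4 had an unadjusted limma p under 0.05. edgeR called 1, 0 and 0 and DESeq2 called 2, 1 and 0, the genes being Slc43a2 in EC KO and Bdh1 in EC KO and Total KO, higher than in Control. The fall of 6 in CM KO was 0 without Control replicate 1, 1 without Control replicate 2, 2 without Total KO replicate 3, 3 without EC KO replicate 2 and 3 without Total KO replicate 2. With replicates 1 of EC KO, CM KO and Total KO left out together, 3 of 30 fell in CM KO against Control, 8 were higher in EC KO than in CM KO and 10 were higher in Total KO than in CM KO. The last count was also 10 without Total KO replicate 1.

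In the distal valine and isoleucine steps, 3 of 8 fell in CM KO against Control, where 2.40% of all tested genes were called lower. Aldh6a1, methylmalonate semialdehyde dehydrogenase of the valine branch, stood at 7498, 6812 and 7009 normalized counts in EC KO hearts, 2672, 4579 and 4439 in CM KO, 6730.3, 6344 and 6061 in Total KO, and 7057 and 5878 in Control hearts. Its CM KO values were below all others, a fall of 0.77 ± 0.19 on the log2 scale (limma adjusted p = 0.0349). Acat1, the thiolase that ends the isoleucine branch and also handles ketone bodies, fell by 0.74 ± 0.18, and Hibadh, a valine-branch dehydrogenase, by 0.51 ± 0.12 (limma adjusted p = 0.0341 and 0.0292). With 1 library left out at a time, the calls of Aldh6a1 and Acat1 were each lost in 5 of 11 fits and that of Hibadh in 2. Hsd17b10, of the isoleucine branch, did not pass there but was higher in EC KO than in CM KO by 0.50 ± 0.12 and in Total KO than in CM KO by 0.54 ± 0.12 (limma adjusted p = 0.0119 and 0.0103).

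Of the 6 tested genes that carry propionyl-CoA to succinyl-CoA, 2 fell in CM KO against Control, beside 2.40% of all tested genes. Pcca, the alpha subunit of propionyl-CoA carboxylase, stood at 1921, 2035 and 2223 normalized counts in EC KO hearts, 1017, 1498 and 1448 in CM KO, 2242, 2009.6 and 2101 in Total KO, and 2053 and 1988 in Control hearts. The CM KO libraries were below the rest, a fall of 0.63 ± 0.14 on the log2 scale (limma adjusted p = 0.0271). Mcee, the epimerase that follows, fell by 0.58 ± 0.14 (limma adjusted p = 0.0324). The call of Pcca was lost without either Control library, and that of Mcee without CM KO replicate 1, Total KO replicate 3 or Control replicate 1. Pccb, the beta subunit, and Mmaa, of cobalamin handling, did not pass against Control and were higher in Total KO than in CM KO by 0.38 ± 0.10 and 0.53 ± 0.10 (limma adjusted p = 0.0238 and 0.00656), the call of Pccb being lost without CM KO replicate 1, Total KO replicate 1 or Total KO replicate 3.

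Of the 7 shared enzymes and regulators, Dld fell in CM KO against Control, where 2.40% of all tested genes did. Dld encodes E3, the dehydrogenase that the branched-chain complex shares with pyruvate dehydrogenase, and stood at 9873, 8846 and 9057 normalized counts in EC KO hearts, 5122, 7391 and 6660.1 in CM KO, 9456, 9089 and 9039 in Total KO, and 9559 and 8592 in Control hearts. The CM KO values lay below all others, a fall of 0.52 ± 0.14 on the log2 scale (limma adjusted p = 0.0468), whose call was lost in 10 of the 11 fits that each left out 1 library. Gpt, an alanine aminotransferase, differed by 0.76 ± 0.21 between EC KO and CM KO and by 0.90 ± 0.21 between Total KO and CM KO (limma adjusted p = 0.0260 and 0.0149). The first call was lost without CM KO replicate 1 and without replicates 1 or 3 of EC KO, and the second without Total KO replicate 1.

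Slc43a2 and Bdh1 had another order of groups. Slc43a2, a transporter of large neutral amino acids, stood at 1366, 1587 and 1775 normalized counts in EC KO hearts, 764, 842 and 915 in CM KO, 1095, 1331 and 1249.5 in Total KO, and 981 and 1016 in Control hearts. All EC KO and Total KO libraries were above both Control libraries, and CM KO was below them. EC KO was higher than CM KO by 0.90 ± 0.11 (limma adjusted p = 0.000580), and the difference of EC KO from Control was 0.65 ± 0.13 (limma adjusted p = 0.0598). That of Slc43a2 passed without CM KO replicate 1 and with the 3 replicates 1 left out together (limma adjusted p = 0.0363 and 0.0130).

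Bdh1, the ketone body dehydrogenase listed with the leucine branch for its product acetoacetate, stood at 4640.4, 4574 and 5485 normalized counts in EC KO hearts, 1559.8, 2415 and 2370.0 in CM KO, 6177, 5198 and 5312 in Total KO, and 2319 and 3378 in Control hearts. EC KO and Total KO lay above all Control and CM KO libraries, while CM KO overlapped Control. The difference of CM KO from Control was -0.43 ± 0.19, that of EC KO 0.80 ± 0.19 and that of Total KO 0.99 ± 0.19, none of which passed (limma adjusted p = 0.227, 0.126 and 0.0939). Without CM KO replicate 1, Bdh1 passed in EC KO and in Total KO against Control (limma adjusted p = 0.0344 and 0.0159), and in Total KO also with the 3 replicates 1 left out together (limma adjusted p = 0.0456). EC KO was higher than CM KO by 1.23 ± 0.17 and Total KO by 1.42 ± 0.17 (limma adjusted p = 0.00102 and 0.000851). Of the 6 transport genes, 5 had estimates above 0 against Control in EC KO (median 0.43), 5 in CM KO (median 0.33) and 6 in Total KO (median 0.12), and 0 passed in limma (3, 2 and 1 at an unadjusted p under 0.05). In CM KO, Slc7a5, Slc3a2, Slc43a1, Slc7a8 and Slc25a44 had differences of 0.61, 0.42, 0.23, 0.71 and 0.05.

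**Figure D4:**
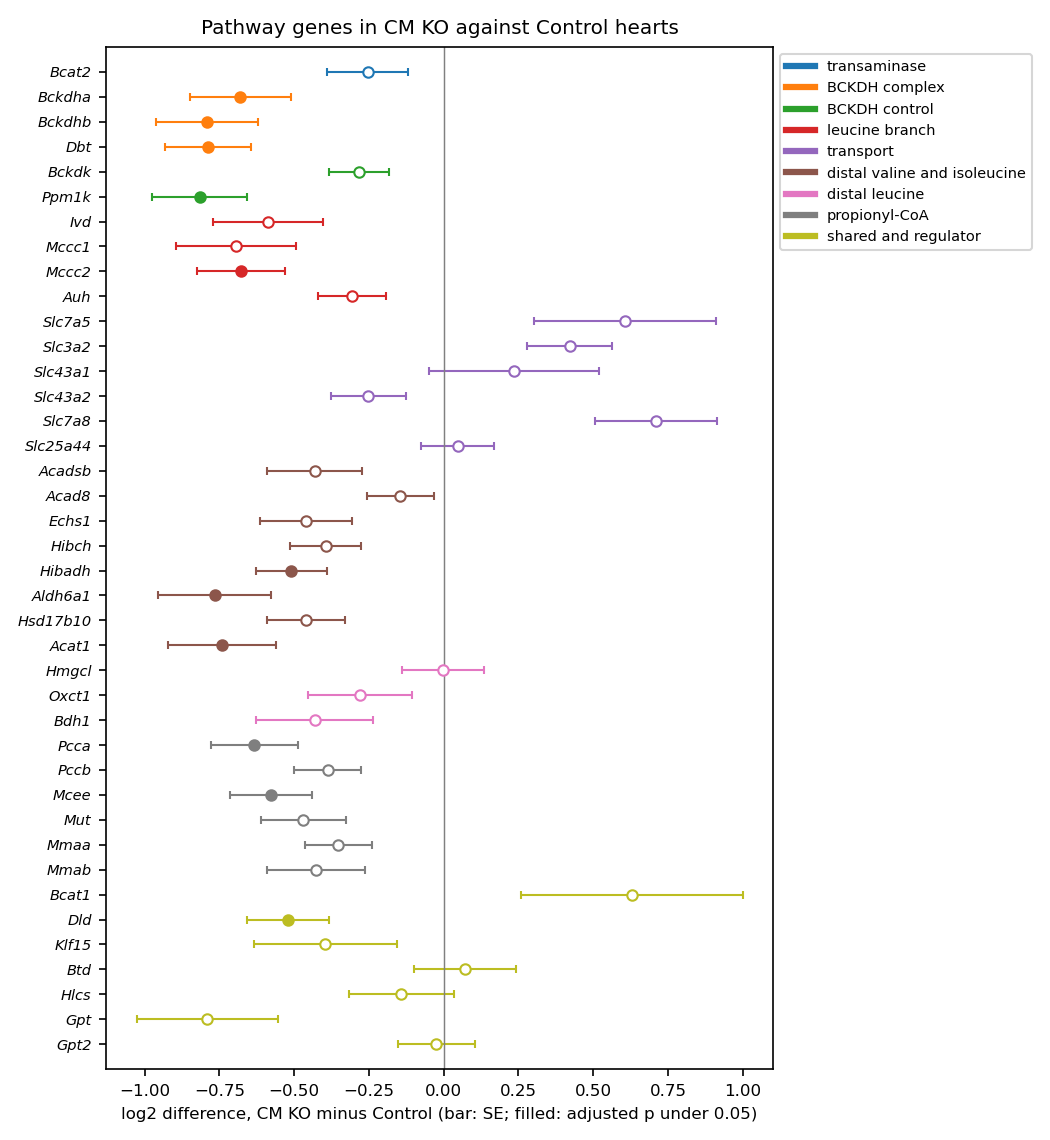
Log2 difference of CM KO minus Control (horizontal axis) for the 10 genes and the 30 other pathway genes, coloured by step. Points are estimates with SE bars and filled points have an adjusted p under 0.05; the 11 filled points all lie below 0, and 5 of the 6 transport genes lie above it.

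The genes most alike to the mean profile of the 10 were found over the 11 libraries among 12145 other genes, by Pearson's r of log2 values and as a description. They were Gcdh (r = 0.987), Ldhb (0.986), Ldhd (0.984), Sgca (0.984) and Idh3b (0.983). Gcdh is the glutaryl-CoA dehydrogenase of lysine breakdown, Ldhb and Ldhd are lactate dehydrogenases, Sgca is a sarcoglycan of the muscle membrane and Idh3b is a subunit of the isocitrate dehydrogenase of the citric acid cycle. The 11 libraries fall into the 3 of CM KO and the 8 others in this profile, and r was taken over both together. Gcdh stood at 1740.2, 1626 and 1867 normalized counts in EC KO hearts, 852, 1169.5 and 1225 in CM KO, 1763, 1544 and 1761 in Total KO, and 1582 and 1690.1 in Control hearts. In CM KO against Control, Gcdh fell by 0.61 ± 0.14 on the log2 scale (limma adjusted p = 0.0280).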

How the data were processed

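RNA of mouse heart tissue was sequenced in 11 libraries after ribosomal RNA removal with a strand-specific kit, per the labels. The submitters' processing notes name TopHat2, HTSeq 0.8.0, DESeq2 (given as 3.5) and the mm10 build. The counting mode, strand setting, annotation and filters are not given in the sources used here. The deposited signal values are read counts per gene, scaled by the authors with a single factor in each library. All 257620 values were within 0.05 reads of a whole number of reads once divided by the smallest value of their library (100.0%), which gave back the read counts. Multi-copy and antisense reads cannot be apportioned from such a table.

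Genes with a mean of at least 10 (12976) were fitted as log2(value + 1), a scale that understates changes of low genes, in one limma model (3.58.1, R 4.3.3) of the 4 groups with a trended prior variance. The 6 pairwise contrasts and an F test over the 3 contrasts with Control were adjusted by Benjamini-Hochberg over all tested genes and called under 0.05. The F test counts a gene that differs between any groups.

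The settings tried beside these were 2 other pseudocounts (0.5 and 5), 2 other filters (none, and a mean of 50) and 3 rescalings (upper quartile, quantile, library total). The fit was also run on the 2 compared groups alone, with arrayWeights, which weights each library, and with a prior that is robust to outliers. Recovered reads were tested with edgeR 4.0.16 (quasi-likelihood, TMM) and DESeq2 1.42.0. Libraries were left out one at a time, and replicates 1 of EC KO, CM KO and Total KO together. The count tests on recovered reads called 6 (edgeR) and 7 (DESeq2) of the 10 genes in CM KO against Control. No share over all tested genes is given for edgeR or DESeq2, so their counts cannot be set beside one. The steps were also run on simulated counts, with changes in CM KO larger than those of the 10 genes against Control. That run does not show how changes of their size are recovered. Replicate numbers follow the order of deposit.

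The 10 genes, the other pathway genes and the marker lists were chosen with earlier results of these data known. Every one of the 10 is named. Of each pathway list, up to 4 genes of lowest F test p are named that passed in a comparison with Control or in the F test, and of all other genes the 5 with the highest r. The transport genes given together and the transporter called lower in Total KO were named after their values were seen. Levels per kilobase use the length of the principal transcript in GENCODE, and sequences are from RefSeq on GRCm38.p6. The macrophage marker Adgre1 and the erythroid marker Hbb-bs were not measured under these names, and methylmalonyl-CoA mutase was measured as Mut.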

Additional observations from a re-analysis of the deposited data

How the results depend on the processing

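No paired analysis was possible because the labels number each library separately and tie none to a library of another group. The number of the 10 genes called in CM KO against Control was 0 in a fit to the 2 groups compared and 3 with arrayWeights, against 5 as reported, and 0 to 6 over the fits that left out 1 library each. Without a Control library, the fit takes the spread of the one left from the other groups. With replicates 1 of EC KO, CM KO and Total KO left out together, 4 were called for EC KO against CM KO and 4 for Total KO against CM KO. Leaving out 1 library at a time gave 6 to 7 of 10 for EC KO against CM KO, 5 to 9 for Total KO against CM KO and 5 to 7 in the test over all 4 groups. EC KO against Control, Total KO against Control and Total KO against EC KO stayed at 0 under each alternative run. For the 30 other pathway genes, 0 fell in CM KO against Control in the fit to the 2 groups compared, 2 with arrayWeights and 3 with no filter, and with DESeq2 11 fell and 1 rose, against 6 and 0 as reported. The cause of these shifts was not tested. Values changed sign only near 0: the Total KO minus Control difference of Bckdha was -0.032 under quantile normalization, and that of Bckdhb was -0.00528 under quantile normalization, -0.032 under library-total rescaling and -0.034 with the 3 libraries left out together. With 1 library left out, it ran from -0.034 to 0.11 for Bckdhb, from -0.11 to 0.083 for Mccc2 and from -0.37 to 0.055 for Ppm1k. The EC KO minus Control difference of Ppm1k ran from -0.43 to 0.0016. Library-total rescaling moved the median of all genes by -0.12 in EC KO against CM KO and by -0.14 in Total KO against CM KO, and 6 and 7 of the 10 genes were called there. Bckdha, Bckdhb and Dbt passed in EC KO against CM KO and in Total KO against CM KO under all 24 alternatives.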
